A study of Danio rerio with 8 samples.

Results

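Genes of actin assembly and of microridges, the actin-rich ridges on the surface of the corneal epithelium, were followed in adult zebrafish corneas after abrasion. A list of 48 gene symbols was matched to the Ensembl identifiers of the count table, by zebrafish symbol for 14 and by capital symbol, with or without a final a or b, for 31. The 45 matched symbols gave 46 identifiers of the 32520 in the table, and all 46 had enough reads to be tested. The symbols rdx, evplb and tagln2 found no match. In 8 cases a symbol covered 2 identifiers, the paired copies that zebrafish keep of many genes, and these 16 identifiers are named with their Ensembl number because the symbols did not resolve which copy is a and which is b.

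The corneas came from wild type fish of the AB background. In wounded fish the epithelium of both corneas had been abraded with an ophthalmic burr and corneas were taken 1.5 h later, whereas control fish were anesthetized and held on the sponge for the same time. Each library pooled 6 corneas of 3 fish, so that the spread between libraries is a spread between pools. There were 4 wounded and 4 control libraries, numbered 1 to 4, and a wounded and a control library that share a number share their tank and age (180, 145, 148 and 183 days for numbers 1 to 4). The library totals were 39472162 to 42393109 counts in wounded corneas and 40524885 to 44250662 counts in controls. The study excluded 1 sample after a principal component plot, and wounded library 1 stood apart here as well, since the 10 genes with the most reads took 13.3% of its counts, against 15.0% to 17.0% in the other libraries. Wounded libraries 2 to 4 were therefore set against control libraries 1 to 4, and wounded library 1 is given beside them. Levels are read counts scaled to library size and composition (CPM after TMM normalization) but not to gene length, so that levels are compared within a gene only. The labelled tissue was checked with markers of corneal epithelium, of which all 7 were detected. They summed to 55325–60081 CPM in wounded libraries 2 to 4 and 58197–61149 CPM in controls, with 37772 CPM in wounded library 1. Most of the sum was krt5, which was below all controls in wounded libraries 2 to 4 (37479 to 41190 against 41521 to 42767 CPM). Above all controls there were krt8 (2810 to 3339 against 2008 to 2455 CPM) and epcam (3816 to 3942 against 2998 to 3445 CPM). The other markers overlapped, and none of the 7 passed the test given below. In wounded library 1, krt4, krt5 and cldne were below all controls, krt8 and TP63 within their range, and cdh1 and epcam above it. Lens markers summed to at most 0.0489 CPM in wounded libraries 2 to 4 and to 0 CPM in controls. Reads of other tissues were present, with 9 retina markers at 140–282 CPM in wounded libraries 2 to 4, 134–302 CPM in controls and 353 CPM in wounded library 1, and 9 skeletal muscle markers at 560–801 CPM in wounded libraries 2 to 4 and 517–996 CPM in controls.

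Actin filaments grow from monomers, and the shape of a filament network depends on the proteins that nucleate, elongate, cap, bundle, cut and anchor it. The Arp2/3 complex starts branches on existing filaments once WASP-family proteins activate it, Ena/VASP proteins speed elongation, and I-BAR proteins bend the membrane outward and bring actin regulators to it. In zebrafish skin, microridges arise from actin-based pegs that merge into ridges, with contributions from Arp2/3, non-muscle myosin II and the keratin-binding plakins periplakin and envoplakin. Ezrin, radixin and moesin link cortical filaments to the membrane.

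A single gene of the 46 passed the test between wounded and control corneas (edgeR quasi-likelihood test, Benjamini-Hochberg adjusted p of 0.05 over 18935 genes), the BAIAP2 copy ENSDARG00000062799, which fell. Of all genes tested, 1.37% passed, 0.734% higher and 0.634% lower. The members' log2 fold changes ranged from −1.36 to 0.78, with a median of 0.13 (30 positive, 16 negative), beside a median of 0.012 over all genes tested. At an unadjusted p of 0.05 there were 16 members, where 18.5% of all genes passed. When fish of the same tank were paired, by a replicate block in the same model, 5 members passed, with 3 higher (MSN, TAGLN ENSDARG00000033466 and tpm4a) and 2 lower (BAIAP2 ENSDARG00000062799 and BAIAP2L1 ENSDARG00000031119), where 5.22% of all genes did, 2.71% higher and 2.51% lower. Control library 1 has no wounded partner in this block fit, so that its wound effect comes from tanks 2, 3 and 4 only. In DESeq2 without the block, 6 members passed, where 9.03% of the 14513 genes with an adjusted p did. With the block 9 members passed, where 11.7% of the 13047 genes with an adjusted p did. Some genes had no adjusted p in DESeq2, among them FSCN1 ENSDARG00000037747 with the block. The count was 1 with all 8 libraries (1.26% of all genes), 4 with all 8 and the block (4.33%), 2 with age as a covariate (2.11%) and 2 without a filter on low counts (1.90%). The 3 wounded libraries lay beyond all 4 controls for 17 of the 46 genes (11 above, 6 below), a share of 37.0%, where 17.5% of all genes did so, 8.43% above and 9.12% below. The members were chosen with earlier results of these data known, so that shares of members set beside shares of all genes are no test of the list. With wounded library 1 included, all wounded libraries lay beyond all controls for 3 members, where 11.0% of all genes did so. These were BAIAP2 ENSDARG00000062799 and BAIAP2L1 ENSDARG00000031119 below and CNN2 above the controls.

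**Figure D1:**
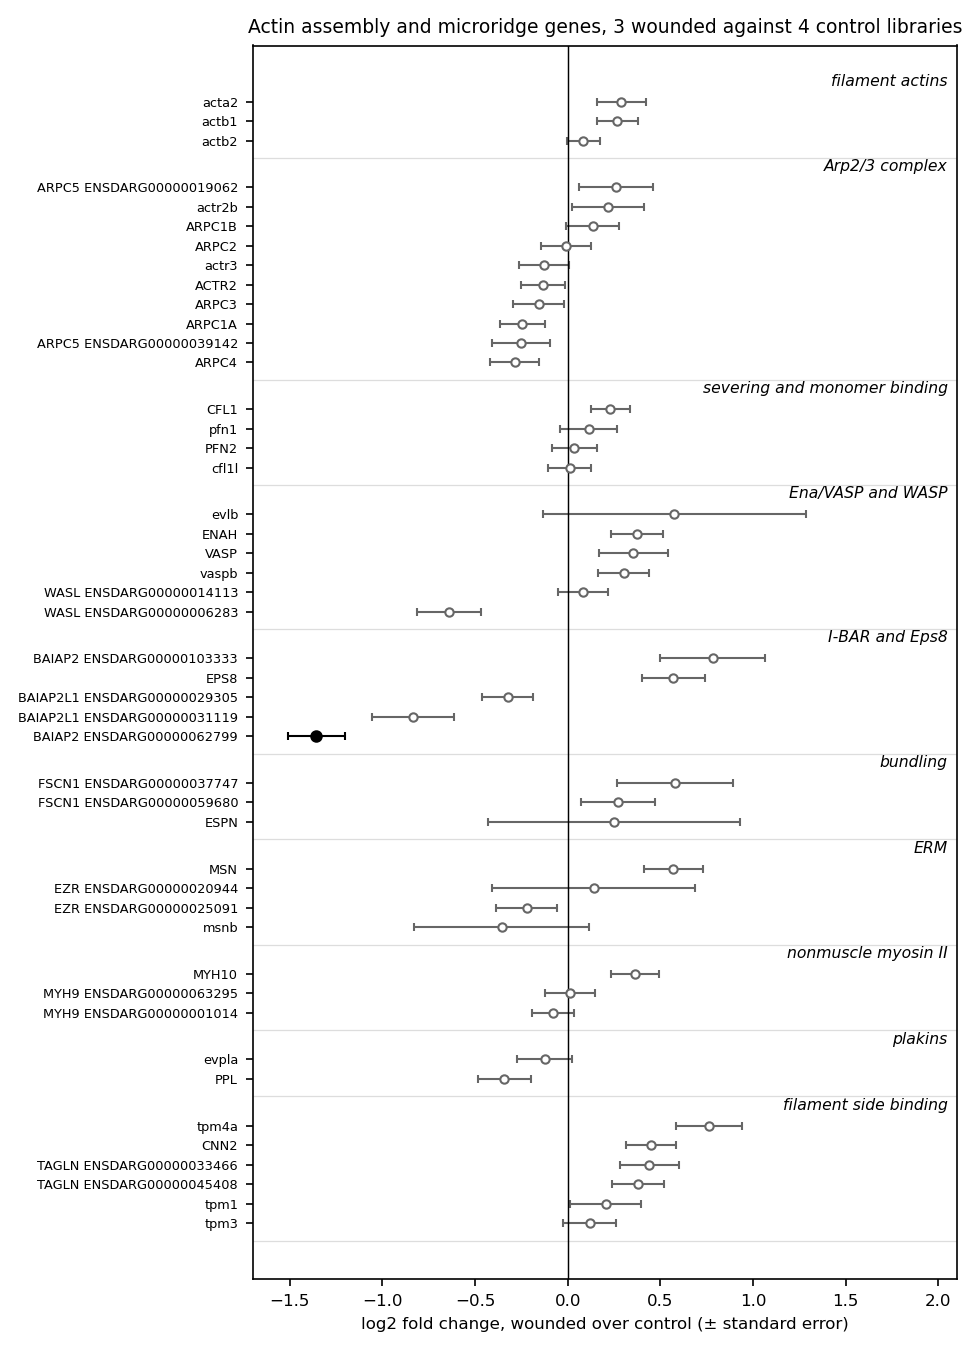
Log2 fold change of each of the 46 genes, wounded libraries 2 to 4 over control libraries 1 to 4, with its standard error, by role. The filled point, BAIAP2 ENSDARG00000062799 at −1.36, passed the adjusted p of 0.05 and the 45 open points did not.

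The I-BAR genes held the gene that fell. BAIAP2 encodes IRSp53, an I-BAR scaffold that joins the small GTPases Rac and Cdc42 to the WAVE and Ena/VASP machinery at the membrane. Its copy ENSDARG00000062799 had 62.2, 54.8 and 47.8 CPM in wounded libraries 2, 3 and 4 (49.3 CPM in wounded library 1), against 161, 115, 142 and 142 CPM in the 4 controls. All wounded libraries were below all controls, and the difference was several times the spread within either group. The means were 54.9 ± 7.18 CPM in wounded corneas (SD, n = 3) and 140 ± 19.3 CPM in controls (SD, n = 4), a log2 fold change of −1.36 ± 0.15 (SE; edgeR adjusted p = 0.00575). Within tanks the log2 ratio of wounded to control was −0.88, −1.37 and −1.57 for numbers 2, 3 and 4, and −1.71 for number 1. In a whole-tissue sample, fewer cells of a type and less RNA per cell cannot be told apart.

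The second BAIAP2 copy, ENSDARG00000103333, was a low-count gene and lay on the other side. It had 2.45, 3.52 and 2.50 CPM in wounded libraries 2 to 4, against 1.32, 1.39, 1.99 and 1.83 CPM in controls, with wounded library 1 inside the control range at 1.45 CPM. The log2 fold change was 0.78 ± 0.28 (SE), which did not pass over all genes (edgeR adjusted p = 0.175). Within a library, the log2 ratio of reads of the first copy to those of the second was 4.67, 3.96 and 4.26 in wounded libraries 2 to 4, against 6.94, 6.36, 6.16 and 6.28 in controls, a difference of −2.14. The groups did not overlap, and the exact permutation test gave p = 0.0571 (2-sided), the smallest that 3 against 4 libraries allow, in a comparison chosen after the values had been seen and made for all 8 pairs of copies (Benjamini-Hochberg adjusted exact p = 0.152). With all 8 libraries the difference was −1.94, at the smallest possible exact p of 0.0286 (adjusted over the 8 pairs, 0.114).

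BAIAP2L1 encodes IRTKS, an I-BAR relative of IRSp53. Its copy ENSDARG00000031119 had 6.70, 11.5 and 10.8 CPM in wounded libraries 2 to 4 and 8.52 CPM in wounded library 1, against 17.8, 13.3, 16.7 and 20.7 CPM in controls. All 4 wounded libraries were below all controls, with means of 9.64 ± 2.57 CPM (wounded 2 to 4, SD, n = 3) and 17.1 ± 3.03 CPM (control, SD, n = 4). The log2 fold change was −0.84 ± 0.22 (SE). It did not pass over all genes (edgeR adjusted p = 0.0860), but did with the replicate block (adjusted p = 0.0225) and in DESeq2 (adjusted p = 0.00998). The copy with more reads, ENSDARG00000029305, had 56.0, 49.7 and 41.3 CPM in wounded libraries 2 to 4, against 61.7, 58.2, 62.9 and 61.3 CPM in controls. These wounded libraries were below all controls, while wounded library 1 was above them at 65.5 CPM (edgeR adjusted p = 0.235).

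EPS8, which caps the fast-growing filament end and bundles filaments in a complex with IRSp53, had 11.4, 12.22 and 11.1 CPM in wounded libraries 2 to 4, against 7.46, 9.08, 6.43 and 8.02 CPM in controls. These libraries were above all controls, at a log2 fold change of 0.57 ± 0.17 (SE; edgeR adjusted p = 0.114, DESeq2 adjusted p = 0.0497). Wounded library 1 was below all controls at 4.25 CPM, and with it in the fit the log2 fold change was 0.33 (edgeR adjusted p = 0.602). The 5 genes of this role thus split, with the 3 lower ones carrying most of the reads, so that their summed level was 139, 132 and 113 CPM in wounded libraries 2 to 4 and 129 CPM in wounded library 1, against 250, 197, 230 and 234 CPM in controls. That sum was a log2 ratio of −0.83 between the means, of which the fallen BAIAP2 copy was the main part.

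**Figure D2:**
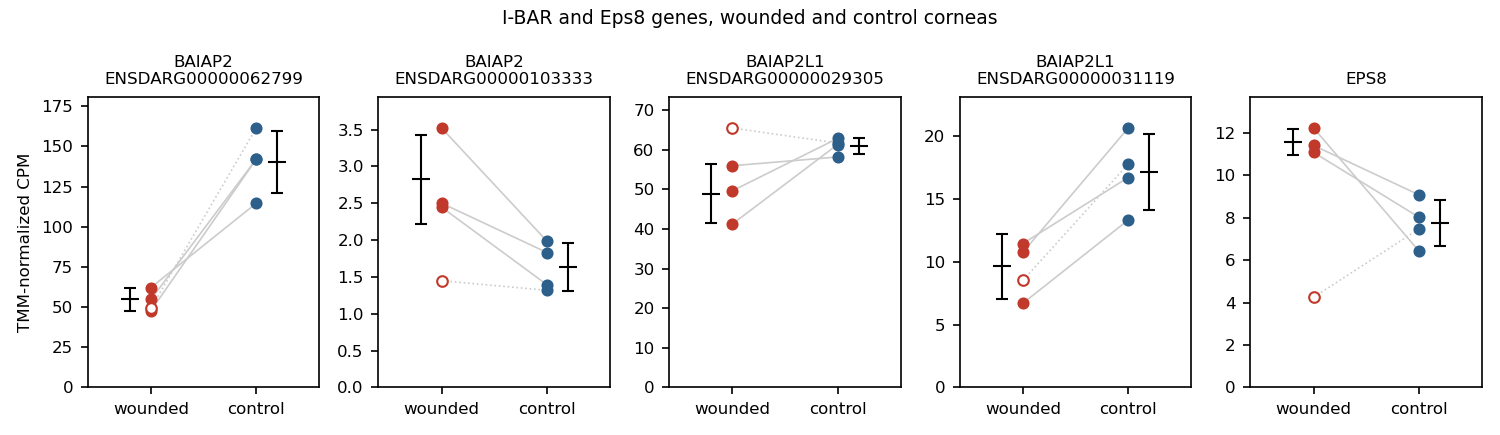
TMM-normalized CPM of the 5 I-BAR and Eps8 genes in wounded (red) and control (blue) libraries, with grey lines joining libraries of the same number and black bars giving the mean and SD of wounded libraries 2 to 4 and of the controls. The hollow red point is wounded library 1, which lies with the other wounded libraries for BAIAP2 ENSDARG00000062799 (49.3 CPM) and below all controls for EPS8 (4.25 CPM).

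Genes that activate Arp2/3 or speed elongation had log2 fold changes of both signs. WASL encodes N-WASP, the activator of Arp2/3 that Cdc42 switches on. Its copy ENSDARG00000006283 had 84.0, 71.5 and 94.7 CPM in wounded libraries 2 to 4, against 165, 108, 135 and 110 CPM in controls. These libraries were below all controls, but wounded library 1 was inside the control range at 116 CPM, and the log2 fold change of −0.64 ± 0.17 (SE) did not pass (edgeR adjusted p = 0.0890, with the replicate block 0.0779), although it did in DESeq2 (adjusted p = 0.0137). The other copy, ENSDARG00000014113, had 17.9 to 18.8 CPM in wounded libraries 2 to 4 and 16.2 to 18.9 CPM in controls. The log2 ratio of the first copy to the second averaged 2.18 in wounded libraries 2 to 4 and 2.89 in controls, without overlap (exact permutation p = 0.0571, 2-sided), and with all 8 libraries the difference of −0.60 had p = 0.0571, above the smallest possible value. Either exact p was 0.152 after Benjamini-Hochberg adjustment over the 8 pairs of copies.

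ENAH, the Mena member of the Ena/VASP family, had 26.4, 26.8 and 28.8 CPM in wounded libraries 2 to 4, against 18.9, 21.0, 24.3 and 19.6 CPM in controls. These libraries were above all controls, with wounded library 1 inside the control range at 21.9 CPM, and the log2 fold change of 0.38 ± 0.14 (SE) did not pass (edgeR adjusted p = 0.187). The VASP gene vaspb, the one with the most reads in this role, had 234, 192 and 214 CPM in wounded libraries 2 to 4, against 164, 204, 149 and 172 CPM in controls, which overlapped, and VASP had 5.92 to 8.17 CPM in those wounded libraries and 5.15 to 5.64 CPM in controls. In wounded library 1, VASP was below all controls at 4.01 CPM. The Ena/VASP-like gene evlb was near the limit of detection, at 13 to 18 reads in the 4 wounded libraries and 5 to 22 reads in controls. Of the 6 genes of this role, 3 lay beyond all controls in wounded libraries 2 to 4, where 17.5% of all genes did. A positive log2 fold change was found for 5 of the 6, and none passed in edgeR.

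The subunits of Arp2/3 itself showed small differences. Of 10 identifiers, 3 had a positive and 7 a negative log2 fold change, from −0.29 to 0.26 with a median of −0.13, and none passed in edgeR, with the replicate block or in DESeq2. ARPC4, one of the core subunits, was the lowest, with 51.6, 52.8 and 42.0 CPM in wounded libraries 2 to 4, against 63.6, 60.1, 56.2 and 57.2 CPM in controls. These libraries were below all controls at a log2 fold change of −0.29 ± 0.13 (SE; edgeR adjusted p = 0.275), but wounded library 1 was above them at 71.1 CPM. ARPC1A, the subunit gene with the most reads, averaged 298 ± 31.3 CPM in wounded libraries 2 to 4 (SD, n = 3) and 351 ± 26.2 CPM in controls (SD, n = 4), with overlapping libraries. The 2 copies of ARPC5 had log2 fold changes of opposite sign, 0.26 for ENSDARG00000019062 and −0.25 for ENSDARG00000039142, and their log2 ratio averaged −1.16 in wounded libraries 2 to 4 and −1.72 in controls, without overlap (exact permutation p = 0.0571, 2-sided). With all 8 libraries that difference was 0.52 at the smallest possible exact p of 0.0286. After Benjamini-Hochberg adjustment over the 8 pairs of copies, the exact p was 0.152 over 7 and 0.114 over 8 libraries. The other 5 pairs of copies had exact p of 0.171 to 0.857 over 7 libraries. The summed level of the Arp2/3 genes was 1149 ± 135 CPM in wounded libraries 2 to 4 (SD, n = 3) and 1251 ± 60.0 CPM in controls (SD, n = 4).

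The filament actins took the most reads of the list. The cytoplasmic actin gene actb2 had 16121, 17299 and 15273 CPM in wounded libraries 2 to 4, against 14290, 15653, 15124 and 15860 CPM in controls, which overlapped. Its partner actb1 had 6228, 6185 and 5638 CPM in wounded libraries 2 to 4 and 6059 CPM in wounded library 1, against 5788, 4453, 4660 and 5009 CPM in controls. The log2 fold change of actb1 was 0.27 ± 0.11 (SE; edgeR adjusted p = 0.234), and a single control library, number 1, reached the wounded range. The smooth muscle actin gene acta2 had 356 to 476 CPM in wounded libraries 2 to 4, 281 CPM in wounded library 1 and 299 to 369 CPM in controls. Summed, the 3 actins averaged 22669 ± 1349 CPM in wounded libraries 2 to 4 (SD, n = 3) and 20552 ± 434 CPM in controls (SD, n = 4).

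Of the genes that cut filaments or bind monomers, CFL1 encodes cofilin and pfn1 a profilin. CFL1 had 338, 326 and 320 CPM in wounded libraries 2 to 4, against 293, 269, 259 and 292 CPM in controls. These libraries were above all controls, at a log2 fold change of 0.23 ± 0.11 (SE; edgeR adjusted p = 0.280), while wounded library 1 was below all controls at 227 CPM. The profilin gene pfn1, the one with the most reads in this role, had 1731, 2024 and 1396 CPM in wounded libraries 2 to 4, against 1623, 1805, 1632 and 1261 CPM in controls, so that the groups overlapped. The other profilin and cofilin genes, PFN2 and cfl1l, had log2 fold changes of 0.035 and 0.0097.

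Filament side-binding proteins stabilise filaments or regulate how myosin meets them, and all 6 of their genes had a positive log2 fold change, with a median of 0.41. None passed in edgeR without the block, and 3 lay above all controls in wounded libraries 2 to 4, where 8.43% of all genes did. All 6 were higher in wounded than in control corneas in each of the tanks 2, 3 and 4. Of the 18935 genes tested, 4485 were higher in each of these tanks, and 45.7% kept 1 sign in either direction. For tpm3 in tank 4 the values were nearly level, at 1394 CPM (wounded) and 1391 CPM (control). In tank 1 the 6 genes split, with TAGLN ENSDARG00000033466 and CNN2 higher in the wounded library (log2 ratios of 0.42 and 0.63) and the other 4 lower, at −2.36 for TAGLN ENSDARG00000045408, −0.41 for tpm3, −0.40 for tpm1 and −0.11 for tpm4a. The tropomyosin gene tpm4a had 364, 530 and 523 CPM in wounded libraries 2 to 4, against 304, 206, 275 and 323 CPM in controls. These libraries were above all controls, with means of 472 ± 93.9 CPM (wounded 2 to 4, SD, n = 3) and 277 ± 51.1 CPM (control, SD, n = 4). The log2 fold change of 0.76 ± 0.18 (SE) did not pass (edgeR adjusted p = 0.0637) but did with the replicate block (adjusted p = 0.00530) and in DESeq2 (adjusted p = 0.00470). Wounded library 1 was inside the control range at 281 CPM, and the log2 ratio within tanks 2, 3 and 4 was 0.82, 0.95 and 0.70. With all 8 libraries in the fit tpm4a did not pass (edgeR adjusted p = 0.157, and 0.0806 with the replicate block).

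TAGLN encodes transgelin, a calponin-related actin-binding protein. Its copy with more reads, ENSDARG00000033466, had 975, 1343 and 1211 CPM in wounded libraries 2 to 4 and 1131 CPM in wounded library 1, against 846, 657, 954 and 993 CPM in controls. Wounded library 2 lay between control libraries 3 and 4, and the log2 fold change was 0.44 ± 0.16 (SE; edgeR adjusted p = 0.175). The gene passed with the replicate block, at an edgeR adjusted p of 0.0343 from the pairs of tanks 2 to 4 and 0.0464 with all 8 libraries. It did not pass in DESeq2 without the block (adjusted p = 0.124). The lesser copy ENSDARG00000045408 had 60.7 to 74.1 CPM in wounded libraries 2 to 4 and 45.2 to 60.5 CPM in controls, with wounded library 1 far below at 11.8 CPM. CNN2, which encodes calponin 2, had 758, 963 and 683 CPM in wounded libraries 2 to 4 and 958 CPM in wounded library 1, against 620, 530, 577 and 609 CPM in controls. All 4 wounded libraries were above all controls, at a log2 fold change of 0.45 ± 0.13 (SE; edgeR adjusted p = 0.112), and the gene passed with all 8 libraries and the replicate block (adjusted p = 0.0479). The tropomyosin gene with the most reads, tpm3, had 1394 to 1809 CPM in wounded libraries 2 to 4 and 1135 to 1559 CPM in controls, which overlapped.

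The side-binding genes summed to 3776, 4957 and 4054 CPM in wounded libraries 2 to 4 and 3723 CPM in wounded library 1, against 3610, 2732, 3618 and 3492 CPM in controls. All wounded libraries were above all controls in this sum. Several of these genes are also expressed in smooth muscle, and the 7 markers of smooth muscle and pericytes summed to 175–251 CPM in wounded libraries 2 to 4 and 173–242 CPM in controls, with none of the 5 tested passing and CNN1 ENSDARG00000017193 at 0 in every library. Within that list the log2 fold changes were mostly positive, at a median of 0.39. CNN1 ENSDARG00000102398, CSPG4 (0.76), PDGFRB (0.39) and MYH11 ENSDARG00000009782 (0.26) were positive, and NOTCH3 alone was negative (−0.52). With the replicate block 1 passed higher and 1 lower. CNN1 ENSDARG00000102398, the other calponin 1 copy, had 14.9 to 23.8 CPM in wounded libraries 2 to 4, above the 8.07 to 11.8 CPM of the controls (log2 fold change 0.87, edgeR adjusted p = 0.0644). The pericyte gene PDGFRB was likewise above all controls, at 43.8 to 48.5 CPM in wounded libraries 2 to 4 and 31.0 to 40.7 CPM in controls, and NOTCH3 was below them, at 54.6 to 68.1 CPM in wounded libraries 2 to 4 and 80.6 to 109 CPM in controls. Endothelial markers summed to 93.5–116 CPM in wounded libraries 2 to 4 and 68.9–84.7 CPM in controls, without overlap, and none of the 5 passed. Erythrocyte markers summed to 28.6–43.6 CPM in wounded libraries 2 to 4 and 16.6–31.4 CPM in controls, which overlapped. Neither of the 2 tested passed (log2 fold changes of 0.67 for hbaa1 and 0.55 for alas2), and 1 passed higher with the replicate block. Leukocyte markers, from cells rich in moesin and calponin 2, summed to 650–855 CPM in wounded libraries 2 to 4 and 574–950 CPM in controls, most of it from cd74a. LCP1 had 27.2 to 36.0 CPM in wounded libraries 2 to 4 and 19.3 to 27.1 CPM in controls, and CORO1A had 19.6 to 23.7 CPM in wounded libraries 2 to 4 and 11.6 to 17.9 CPM in controls, both above all controls but not past the test (log2 fold changes of 0.49 and 0.50). In wounded library 1, LCP1 was below all controls at 12.9 CPM and CORO1A inside their range at 13.3 CPM. The rest of the leukocyte list overlapped the controls. Its log2 fold changes were 0.25 for ptprc, 0.24 for SPI1, 0.071 for marco, −0.045 for cd74a and −0.26 for lyz. Of the skeletal muscle list, ACTA1 ENSDARG00000036371 was above all controls, at 17.1 to 32.1 CPM in wounded libraries 2 to 4 and 1.90 to 14.4 CPM in controls (edgeR adjusted p = 0.114). The other ACTA1 copy, ENSDARG00000055618, overlapped the controls at a log2 fold change of −0.38. The rest of that list ran from −0.44 (ckma) to 0.46 (TNNT3 ENSDARG00000030270), and the median of all 9 was −0.0085. The markers said to lie above or below all controls were singled out after their values had been seen. The part of other cell types in the side-binding and moesin values was not tested.

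**Figure D3:**
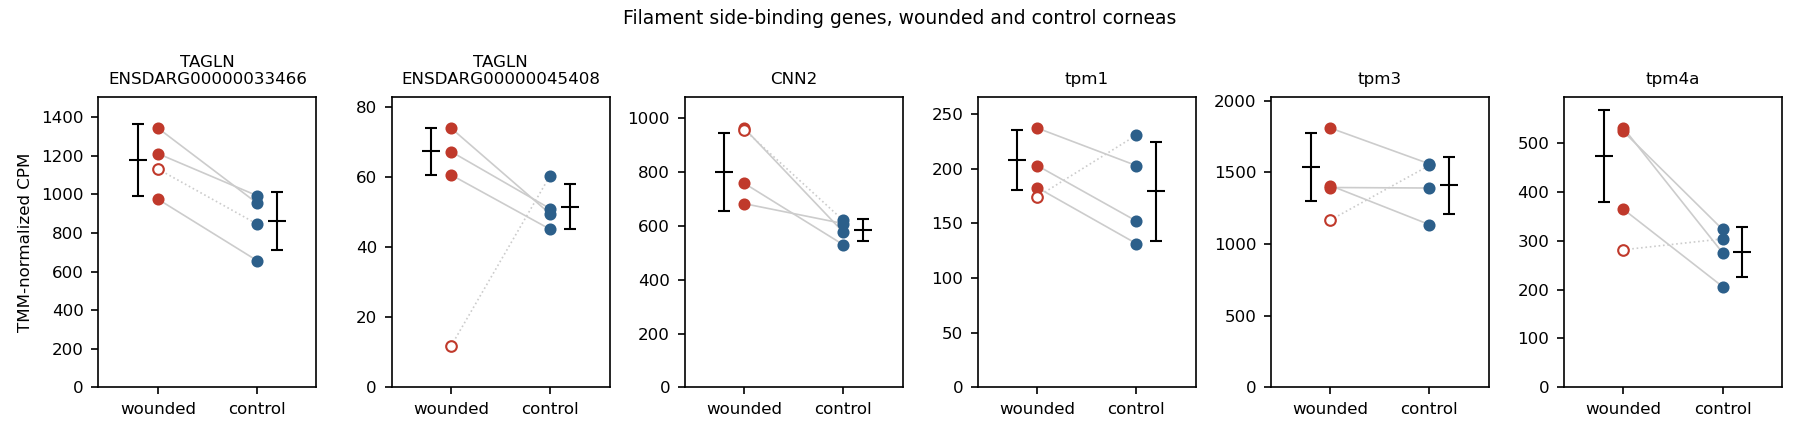
TMM-normalized CPM of the 6 filament side-binding genes in wounded (red) and control (blue) libraries, with grey lines joining libraries of the same number, a hollow red point and dotted line for number 1, and black bars giving the mean and SD of wounded libraries 2 to 4 and of the controls. The solid lines of numbers 2, 3 and 4 end lower on the control side for all 6 genes, and the dotted line of number 1 ends higher on the control side for 4 of them, from tpm4a (281 CPM in wounded library 1, 304 CPM in control library 1) to TAGLN ENSDARG00000045408 (11.8 and 60.5 CPM).

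Of the ezrin, radixin and moesin family, MSN encodes moesin and had 319, 465 and 349 CPM in wounded libraries 2 to 4, against 255, 204, 272 and 283 CPM in controls. These libraries were above all controls, at a log2 fold change of 0.57 ± 0.16 (SE; edgeR adjusted p = 0.0973), and the gene passed with the replicate block (adjusted p = 0.0302) and in DESeq2 (adjusted p = 0.0307). Wounded library 1 was inside the control range at 258 CPM, and with all 8 libraries MSN did not pass (edgeR adjusted p = 0.217, and 0.113 with the replicate block). The ezrin copy with more reads, EZR ENSDARG00000025091, had 1148, 1350 and 1323 CPM in wounded libraries 2 to 4 and 987 CPM in wounded library 1, against 1517, 1034, 1762 and 1601 CPM in controls. Control library 2 lay below wounded libraries 2 to 4, and the log2 fold change of −0.22 ± 0.17 (SE) did not pass (edgeR adjusted p = 0.514).

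The minor ezrin copy, EZR ENSDARG00000020944, differed more between tanks than between wounded and control corneas. It had 8.56, 13.0 and 2.38 CPM in wounded libraries 2, 3 and 4 and 3.54 CPM in wounded library 1, against 3.08, 8.14, 12.9 and 4.64 CPM in controls 1 to 4. All 4 libraries of the fish aged 180 and 183 days were below all 4 of those aged 145 and 148 days, in wounded and control corneas alike. In a fit over all 8 libraries with abrasion as a covariate, the log2 difference of older minus younger fish was −1.65 (edgeR adjusted p = 0.0368), in a contrast where 0.129% of all genes and this 1 member passed. The call was kept without control library 2 (edgeR adjusted p = 0.0301) and lost without any other single library, at an edgeR adjusted p of 0.0503 without wounded library 1 to 0.159 without control library 3. Each age is a single tank, so that age and tank cannot be told apart. The fit took the 8 libraries as independent, although the wounded and control libraries of a number share a tank. Its adjusted p therefore overstates the evidence for a difference between ages. The interaction of abrasion with age passed for none of the 20018 genes tested in edgeR, with 1.95% of genes and no member at an unadjusted p under 0.05. In DESeq2 it passed for no member.

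**Figure D4:**
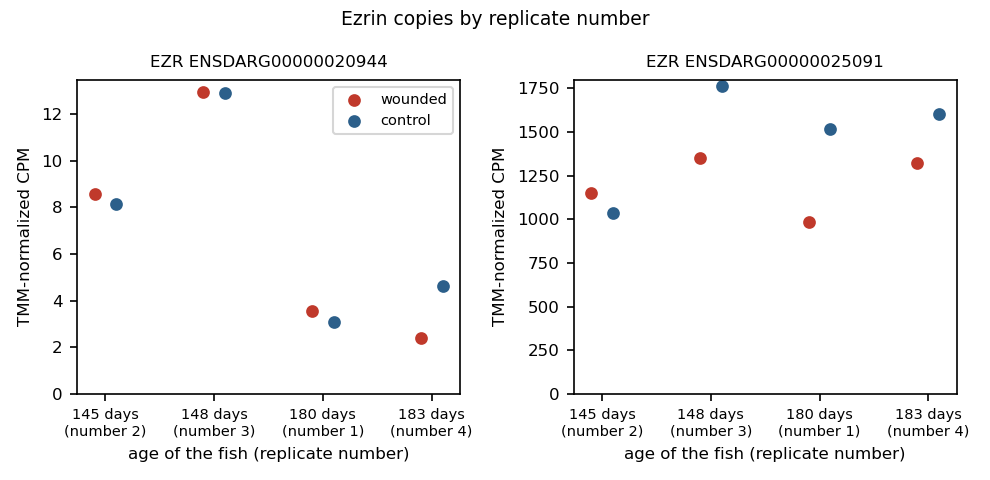
TMM-normalized CPM of the 2 ezrin copies in wounded (red) and control (blue) libraries, by the age of the fish, which also marks the tank. EZR ENSDARG00000020944 lies at 8.14 CPM or more in the fish aged 145 and 148 days and at 4.64 CPM or less in those aged 180 and 183 days, whereas EZR ENSDARG00000025091 shows no such split.

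The plakins link keratin filaments to the cell surface. PPL, which encodes periplakin, had 2709, 2997 and 2814 CPM in wounded libraries 2 to 4 and 1979 CPM in wounded library 1, against 3243, 2811, 4212 and 4076 CPM in controls. Control library 2 lay within the wounded range, and the log2 fold change was −0.34 ± 0.14 (SE; edgeR adjusted p = 0.235). The envoplakin gene evpla had 1080 to 1301 CPM in wounded libraries 2 to 4 and 991 to 1466 CPM in controls. PPL, evpla and EZR ENSDARG00000025091 each had their lowest control value in library 2. So did members of other roles, among them BAIAP2 ENSDARG00000062799, MSN, tpm4a, TAGLN ENSDARG00000033466, CNN2 and actb1.

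The heavy chains of non-muscle myosin II, the motor that contracts the cortex, were measured by 3 genes. MYH10 had 164, 160 and 178 CPM in wounded libraries 2 to 4, against 115, 123, 127 and 153 CPM in controls. These libraries were above all controls, at a log2 fold change of 0.36 ± 0.13 (SE; edgeR adjusted p = 0.166), with wounded library 1 below all controls at 84.6 CPM. The 2 MYH9 copies overlapped between the groups, with ENSDARG00000063295 at 565 to 778 CPM in wounded libraries 2 to 4 and 594 to 714 CPM in controls, and ENSDARG00000001014 at 546 to 598 CPM in wounded libraries 2 to 4 and 548 to 659 CPM in controls. The bundling genes were low or overlapped. The other fascin copy, FSCN1 ENSDARG00000059680, had 66.7, 49.6 and 74.6 CPM in wounded libraries 2 to 4, against 45.2, 68.8, 41.2 and 54.8 CPM in controls. ESPN, which encodes espin, had 8 to 15 reads in wounded libraries 2 to 4 and 4 to 14 reads in controls.

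Wounded library 1 lay outside the control range for 28 of the 46 genes (16 below, 12 above), a count near the background, since 55.3% of all genes tested did so. For 5 members it was below the lowest control by a factor of more than 2, where 5.53% of all genes lay beyond the control range by that factor in either direction. These were BAIAP2 ENSDARG00000062799, which was low in every wounded library, and 4 genes whose wounded libraries 2 to 4 were not all below the controls. The actin-related protein gene actr3 had 85.9 CPM in wounded library 1, against 188 to 230 CPM in controls. MYH9 ENSDARG00000001014 had 125 CPM there, TAGLN ENSDARG00000045408 had 11.8 CPM and FSCN1 ENSDARG00000037747 had 0.546 CPM.

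**Figure D5:**
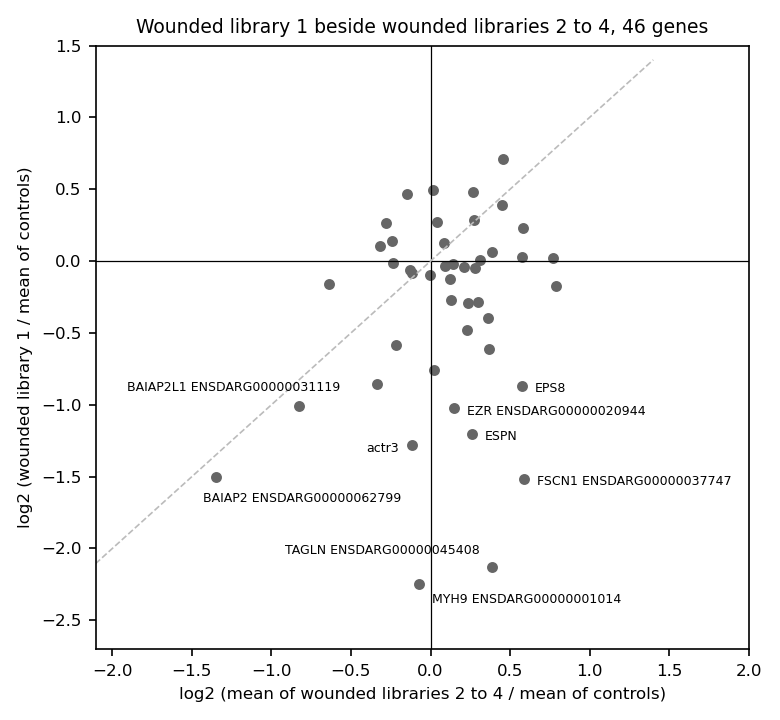
Log2 ratio to the mean of the 4 controls for each of the 46 genes, with wounded library 1 on the vertical axis and the mean of wounded libraries 2 to 4 on the horizontal axis. The dashed line marks equal ratios, and BAIAP2 ENSDARG00000062799 and BAIAP2L1 ENSDARG00000031119 lie near it at the lower left, whereas MYH9 ENSDARG00000001014 and TAGLN ENSDARG00000045408 lie far below it.

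A wider list of actin regulators gave 171 identifiers, of which 161 were tested, with 89 positive and 72 negative log2 fold changes and a median of 0.034. In edgeR 2 of them rose and 4 fell, where 1.37% of all genes passed. RND1, SRF and MYO6 each had a second identifier in the list, which was not among those that passed. RND1 ENSDARG00000004218, which encodes a GTP-binding protein that loosens the actin cortex, had 62.1, 110 and 47.5 CPM in wounded libraries 2 to 4 and 69.4 CPM in wounded library 1, against 6.34, 7.09, 7.40 and 12.22 CPM in controls. All wounded libraries were several times above all controls, at a log2 fold change of 3.14 ± 0.31 (SE; edgeR adjusted p = 0.00305). SRF ENSDARG00000102867, the serum response factor that drives many actin genes, had 4.38, 7.73 and 7.76 CPM in wounded libraries 2 to 4, against 1.92, 3.06, 1.44 and 2.64 CPM in controls, a log2 fold change of 1.54 ± 0.31 (SE; edgeR adjusted p = 0.0437). Wounded library 1 was below all controls for SRF at 0.617 CPM, and with it the gene did not pass (edgeR adjusted p = 0.316).

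The 4 regulators that fell were of different kinds. RHOV, an atypical GTPase related to Cdc42, had 26.6, 24.6 and 13.9 CPM in wounded libraries 2 to 4 and 40.9 CPM in wounded library 1, against 65.4, 55.4, 49.0 and 44.5 CPM in controls (log2 fold change −1.31 ± 0.23, SE; edgeR adjusted p = 0.0320). MYO6 ENSDARG00000044016, a myosin that moves toward the slow-growing filament end, averaged 96.5 ± 10.2 CPM in wounded libraries 2 to 4 (SD, n = 3) and 160 ± 22.0 CPM in controls (SD, n = 4), at an edgeR adjusted p of 0.0397. The Eps8-like gene eps8l1a had 40.5, 31.6 and 24.5 CPM in wounded libraries 2 to 4, against 58.7, 71.1, 57.9 and 53.9 CPM in controls (log2 fold change −0.92 ± 0.18, SE; edgeR adjusted p = 0.0440). The PDZ-LIM gene pdlim2 had 140, 153 and 108 CPM in wounded libraries 2 to 4, against 264, 183, 239 and 266 CPM in controls (log2 fold change −0.84 ± 0.17, SE; edgeR adjusted p = 0.0452). All 4 of these genes were below all controls in wounded library 1 as well, but with all 8 libraries in the fit RHOV (edgeR adjusted p = 0.0801) and eps8l1a (edgeR adjusted p = 0.0577) did not pass. Of the 6 regulators, RND1 alone passed without control library 1, control library 3, wounded library 3 or wounded library 4. Over the whole table those fits called 36, 24, 17 and 56 genes, against 259 with all 7 libraries. The number of regulators that passed was 3 of the 161 without control library 4, 4 without wounded library 2 and 11 without control library 2. Over the whole table these fits called 247, 147 and 456 genes.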

How the data were processed

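Polyadenylated RNA of whole corneas was read in 8 libraries (4 wounded, 4 control). The authors deposited raw read counts per gene, without normalization, made with STAR 2.6.0c (GRCz11) and featureCounts (Ensembl release 97). Whether strand was used in counting is not given in the sources used here, and so the counts of overlapping antisense genes and near-identical copies are uncertain. Columns of other samples numbered 0.

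The counts were fitted with edgeR 4.0.16 under R 4.3.3 (limma 3.58.1, filterByExpr with its minimum count of 10, TMM, quasi-likelihood test, Benjamini-Hochberg adjustment over all genes tested) on 7 libraries, without wounded library 1, and in DESeq2 1.42.0 as an alternative. Plots used Python 3.11.15 and matplotlib 3.10.9. The methods state that control and wounded fish matched for age shared a tank, and libraries of equal number have the same age, so that equal numbers were paired. Deviations from the group means correlated between equal numbers (r = 0.158, 0.238, 0.215 and 0.293 for numbers 1 to 4). Unequal numbers were not compared, so that these correlations do not show the pairing. The alternatives were all 8 libraries, the replicate block, age as a covariate, other filters and scalings, and each library left out. The fitting code was tested on simulated data.

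The members and lists were chosen with earlier results of these data known. Named are members that passed in edgeR, with the block or in DESeq2, the member with the smallest p and the one with the most reads in each role, and regulators that passed; further members with values were chosen after their values were seen. Gene symbols came from reference tables in which 29201 of 32520 identifiers have a symbol.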

Additional observations from a re-analysis of the deposited data

Results flagged for a closer look

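In groups of 4 libraries, 54 groups were examined for a library far from the rest, a rule that chance meets in about 1 of 20 groups. It was met in 3 wounded groups, each time by wounded library 1. EPS8 had 4.25 CPM in wounded library 1, against 11.1 to 12.22 CPM in the other wounded libraries. CFL1 had 227 CPM there, against 320 to 338 CPM in the others. FSCN1 ENSDARG00000037747 had 0.546 CPM there, against at least 2.31 CPM in the others. This is the library whose corneal epithelium markers summed to 37772 CPM, against 55325 to 60081 CPM in the other wounded libraries and 58197 to 61149 CPM in controls. Of these markers krt5 had 22659 CPM there, against 37479 to 41190 CPM in the other wounded libraries. In the same library cdh1 (1518 CPM) and epcam (3855 CPM) were above all controls. The part of the lower sum in the EPS8, CFL1 and FSCN1 values was not tested.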

How the results depend on the processing

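BAIAP2 ENSDARG00000062799 passed in every fit run, with log2 fold changes of −1.46 to −1.26 when any 1 library was left out. Of the 432 alternative values of the 27 named genes, 423 kept their direction. Genes called over the whole table numbered 259, and 1310 in DESeq2, 480 without a filter, 989 with the replicate block, 805 with all 8 libraries and the replicate block, 400 with age as a covariate and 1533 in DESeq2 with the replicate block, and 17 (without wounded library 3) to 456 (without control library 2) when 1 library was left out. Members called numbered 1, and 6, 2, 5, 4, 2 and 9 in those 6 settings, with 1 whichever library was left out. Regulators called numbered 6, and 15 in DESeq2, 10 without a filter, 14 with the replicate block, 11 with all 8 libraries and the block and 15 in DESeq2 with the block, and 1 to 11 when 1 library was left out. Members called between ages numbered 0 to 1. Directions that turned were those of MYH9 ENSDARG00000063295 (0.012, and −0.14 with all 8 libraries, −0.035 with the replicate block, −0.18 with both, −0.038 in DESeq2 with the block, and −0.13 to 0.12 with 1 library left out), pfn1 (−0.015 without wounded library 3, to 0.24) and tpm3 (−0.0077 without wounded library 3, to 0.19), and the FSCN1 copy ratio (0.36, and −0.089 with all 8 libraries). The log2 ratio of the summed actins was 0.14 and became 0.097 by library total, and that of the summed myosins was 0.019 and became −0.20 with all 8 libraries. The causes were not tested. The genes evlb and ESPN had 4 to 22 reads in each library, too few to show a modest difference. The DESeq2 fits with the block and the copy ratios over all 8 libraries were chosen after seeing the data. A search of promoters for motifs was not run.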
